A study of Homo sapiens with 8 samples.

Results

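The 3 strongest enhancers of the medulloblastoma line UW228 lay at the loci of 6 genes, *PRKCH*, *LINC03033* and *HIF1A* on chromosome 14, *RBMS1* and *LINC02478* on chromosome 2, and *GRAMD2B* on chromosome 5. These 6 of 38663 annotated protein-coding and lncRNA genes were chosen by the H3K27Ac signal of UW228, whose enhancers of ranks 1, 2 and 3 lie there, so the UW228 values are a description and carry no test, whereas the values of the other lines did not enter the choice. A deposited enhancer was counted for a gene if it overlapped the gene body or lay within 100 kb of its start on GRCh38 (GENCODE 44 positions). UW228 had 34 such regions, D425 had 22, MB002 had 16 and HD-MB03 had 10. The 6 genes are not independent: *PRKCH*, *LINC03033* and *HIF1A* shared the chromosome 14 enhancer, and *RBMS1* and *LINC02478* the chromosome 2 enhancer.

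H3K27Ac is a histone mark of active enhancers and promoters, and super-enhancers (SEs) are long clusters of enhancers with very high signal that are often found near genes that define the identity of a cell. *PRKCH* encodes protein kinase C eta, a kinase activated by diacylglycerol and expressed mainly in epithelia. *HIF1A* encodes the oxygen-regulated subunit of hypoxia-inducible factor 1, the transcription factor that switches cells to glycolysis and angiogenesis when oxygen is low. *RBMS1* encodes an RNA- and single-stranded DNA-binding protein, *GRAMD2B* a membrane protein with a GRAM domain, and *LINC03033* and *LINC02478* are long intergenic non-coding RNAs.

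The study profiled H3K27Ac by ChIP-seq in the 3 G3-MB (Group 3 subtype medulloblastoma) lines D425, MB002 and HD-MB03 and in the line UW228, which is labelled SHH (Sonic hedgehog) subtype and served as the non-G3 line. All are established human cell lines without treatment. MB002 and HD-MB03 were grown in a serum-free tumor stem medium with EGF, FGF-basic and LIF, and D425 and UW228 in DMEM with fetal bovine serum. There was 1 H3K27Ac library and 1 input library per line and no replicates, so no difference between lines below could be set against a replicate error and none was tested.

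The tables held 20875 enhancers for UW228, 26317 for D425, 26072 for MB002 and 15286 for HD-MB03, of which the authors called 753, 431, 363 and 302 SEs. Signal here is the H3K27Ac value of a region minus its input value, floored at 0, where a value is the read density scaled to the mapped reads of the library times the length of the region in bp. Depth is unknown because the tables hold no read numbers. The scale was not the same in every line, since the median region had a signal of 1690 in UW228, 890 in MB002, 846 in HD-MB03 and 717 in D425, so ranks within a line are given beside signals. Most marker genes did not bear out the SHH label of UW228. Of 8 SHH markers 0 had an SE in UW228, where best ranks ran from 1150 (*BOC*) and 2411 (*PDLIM3*) to 11206 for *GLI1*, 13212 for *PTCH1* and 17902 for *HHIP*, and *ATOH1* had no region, as in MB002 and D425. *BOC* had its highest signal in UW228, and *SFRP1* (rank 3545) had regions in UW228 alone. MB002 and D425 also had 0 of 8, against 3 in HD-MB03 (*PTCH1* at rank 61, *PDLIM3* at 170 and *GLI1* at 203). Among all genes 7.45% had an SE in UW228 and 4.48% in HD-MB03, and the median rank of the best region in UW228 was 9766 over the SHH markers and 9464 over all genes. Of 7 Group 3 markers, 3 had an SE in each G3-MB line and 0 in UW228, where *MYC* ranked 763 and *NPR3*, with no region in a G3-MB line, ranked 1082. *OTX2*, the homeobox factor of Group 3 tumors, ranked 3 in both MB002 and D425 and 5 in HD-MB03, and had no region in UW228. Of 10 mesenchymal markers 5 had an SE in UW228 (*COL1A2*, *PRRX1*, *CD44*, *VIM* and *POSTN*), and 2 had one in D425, where 6.29% of all genes did. Neither MB002 (4.62% of all genes) nor HD-MB03 had an SE at any of these 10 genes, and 0 of 6 astroglial markers had one in any line. Their part in the results at the 3 loci was not tested.

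The sequences before the starts of the 6 genes are printed because these starts differed in whether an enhancer covered them. Each is the run of 250 bases directly upstream of a start in the RefSeq table (GRCh38.p14), 5′ to 3′ on the strand of the gene, and for *GRAMD2B* the most downstream of its 3 starts. The last line is a D425 peak of 182 bp inside the chromosome 2 enhancer, which is printed because it is the only stretch of that enhancer covered by regions of all 4 lines. Capitals mark matches, on either strand, to TGANTCA (AP-1), GGAATG (TEAD), TAATCC (OTX2 and CRX) or ACGTG (the core of the hypoxia response element), and the 6-base run CACGTG holds ACGTG on both strands.
PRKCH (chr14:61321329-61321578, + strand): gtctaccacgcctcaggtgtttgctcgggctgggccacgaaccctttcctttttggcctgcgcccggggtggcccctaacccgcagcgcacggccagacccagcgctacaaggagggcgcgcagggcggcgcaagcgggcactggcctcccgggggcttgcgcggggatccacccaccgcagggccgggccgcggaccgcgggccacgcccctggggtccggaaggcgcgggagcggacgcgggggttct
LINC03033 (chr14:61570290-61570539, + strand): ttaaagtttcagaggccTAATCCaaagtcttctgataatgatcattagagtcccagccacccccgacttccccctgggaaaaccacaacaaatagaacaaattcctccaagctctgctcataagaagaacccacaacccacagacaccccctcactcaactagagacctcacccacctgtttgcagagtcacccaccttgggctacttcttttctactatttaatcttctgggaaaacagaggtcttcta
HIF1A (chr14:61695263-61695512, + strand): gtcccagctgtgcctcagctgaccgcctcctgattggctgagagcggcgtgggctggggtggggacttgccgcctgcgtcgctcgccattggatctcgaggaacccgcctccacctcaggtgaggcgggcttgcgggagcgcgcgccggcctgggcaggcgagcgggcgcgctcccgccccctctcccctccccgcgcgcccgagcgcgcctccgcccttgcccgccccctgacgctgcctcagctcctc
RBMS1 (chr2:160493808-160494057, - strand): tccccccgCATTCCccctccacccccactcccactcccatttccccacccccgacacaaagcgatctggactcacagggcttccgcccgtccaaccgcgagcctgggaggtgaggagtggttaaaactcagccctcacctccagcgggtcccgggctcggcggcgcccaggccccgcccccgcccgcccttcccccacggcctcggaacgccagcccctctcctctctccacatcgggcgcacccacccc
LINC02478 (chr2:160271896-160272145, - strand): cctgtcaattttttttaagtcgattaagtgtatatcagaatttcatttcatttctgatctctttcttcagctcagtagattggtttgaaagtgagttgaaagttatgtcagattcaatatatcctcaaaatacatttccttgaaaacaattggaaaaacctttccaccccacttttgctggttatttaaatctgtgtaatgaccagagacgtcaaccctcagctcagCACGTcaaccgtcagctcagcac
GRAMD2B (chr5:126464900-126465149, + strand): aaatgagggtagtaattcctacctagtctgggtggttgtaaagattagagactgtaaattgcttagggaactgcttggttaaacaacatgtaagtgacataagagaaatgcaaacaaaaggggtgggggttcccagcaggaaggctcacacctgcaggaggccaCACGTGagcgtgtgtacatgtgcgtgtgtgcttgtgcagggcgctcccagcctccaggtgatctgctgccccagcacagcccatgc
D425 peak (chr2:160247647-160247828, + strand): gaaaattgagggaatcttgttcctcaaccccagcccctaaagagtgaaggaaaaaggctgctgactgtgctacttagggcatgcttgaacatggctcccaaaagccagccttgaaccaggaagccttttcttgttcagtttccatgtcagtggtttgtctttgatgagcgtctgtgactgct

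Matches to these motifs were few. The upstream sequence of *LINC03033* held 1 TAATCC, a motif found in 5.62% of all 35116 RefSeq promoters in windows of the same length. Upstream of *LINC02478* there was 1 ACGTG, and CACGTG before the third *GRAMD2B* start counted as 2, where 18.5% of promoters held ACGTG. *RBMS1* had 1 GGAATG, present in 11.9% of promoters. TGANTCA, present in 6.57%, was in none of the 9 RefSeq upstream sequences of the 6 genes, and the *PRKCH* and *HIF1A* sequences and the D425 peak held no match to any of the 4 motifs. The starts also differed in base composition. GC content was 75.6% before the main *HIF1A* start, 75.2% for *PRKCH* and 71.6% for *RBMS1*, against 46.0% for *LINC03033*, 36.8% for *LINC02478* and 38.8% to 51.6% for the 3 *GRAMD2B* starts.

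The 3 GC-rich starts lay in no deposited enhancer of any line, and all others but a second *HIF1A* start lay inside the top UW228 enhancers. That *HIF1A* start, with a GC content of 31.2% upstream, was in a UW228 SE of rank 455. The *LINC03033* start was in the UW228 enhancer of rank 1 and in the D425 SE of rank 106. The *LINC02478* start was in the UW228 enhancer of rank 2 and in a D425 enhancer of rank 4448. All 3 *GRAMD2B* starts were in the UW228 enhancer of rank 3 and in no G3-MB enhancer. The study states that regions flanking promoters were left out, and the part of that step in which starts were covered was not tested.

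**Figure D1:**
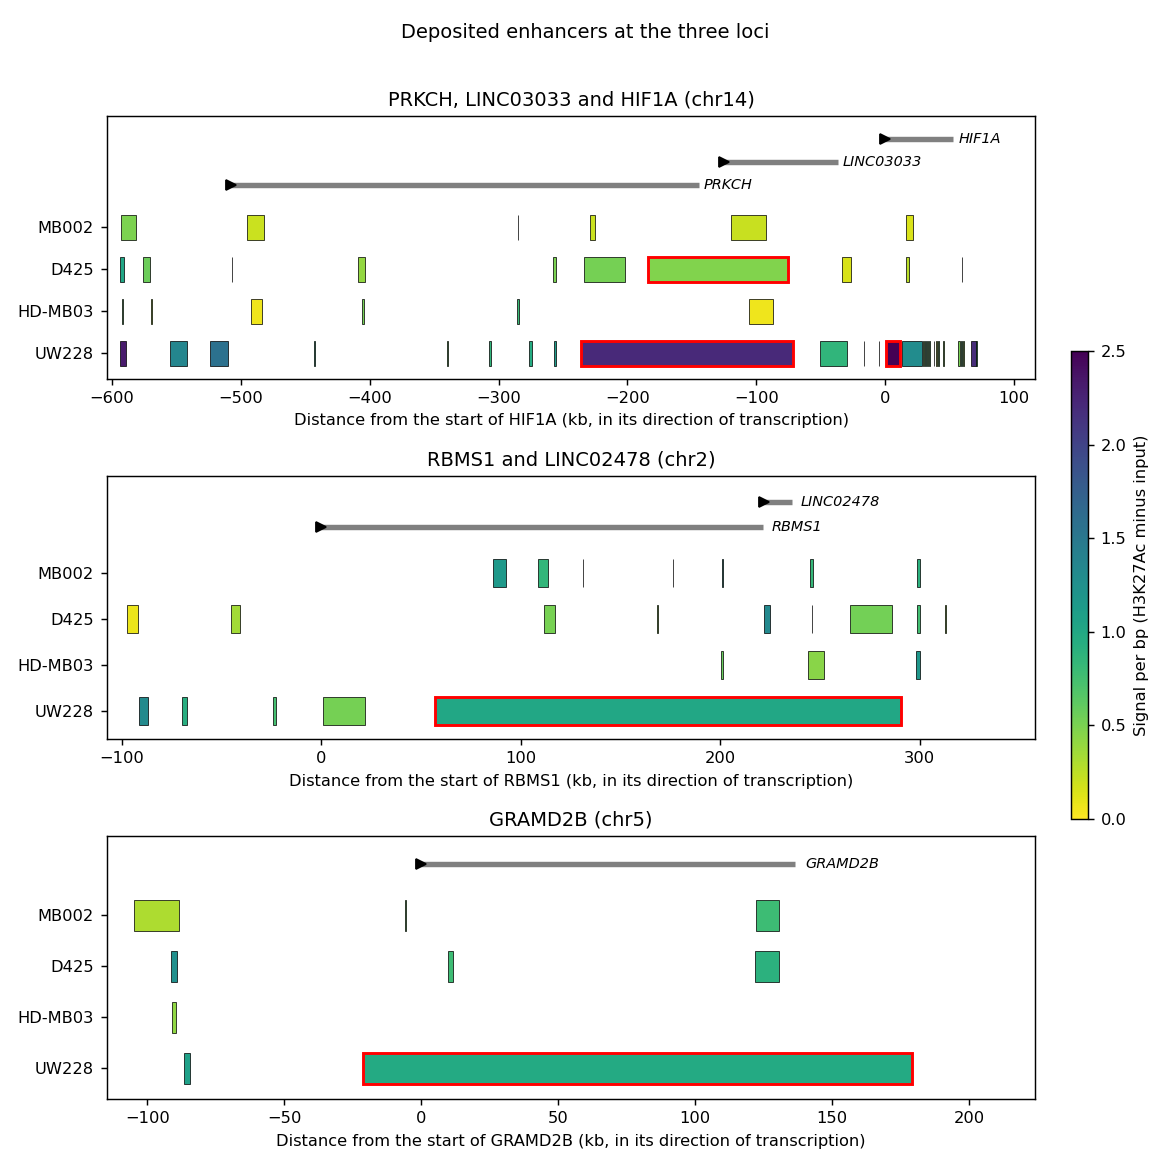
Deposited enhancers at the 3 loci in each line, placed by distance in kb from the start of *HIF1A*, *RBMS1* or *GRAMD2B* in its direction of transcription. Boxes are enhancers drawn to scale and coloured by signal per bp, red outlines are SEs, and grey bars are gene bodies with an arrowhead at the start. A single UW228 box of 165.2, 233.5 and 200.4 kb fills much of each locus, D425 has an SE on chromosome 14 only, and MB002 and HD-MB03 have short scattered regions.

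The top UW228 enhancer, chr14:61459200-61624389, joined the 3' part of *PRKCH* to the 5' part of *LINC03033*. It was 165.2 kb long and had a signal of 366059, which was 0.349% of the summed signal of all UW228 enhancers. Of its length, 55.6% lay in the *PRKCH* gene body, with 87387 bp in introns and 4390 bp in exons, including 1166 bp of UTR. The *LINC03033* gene body took 32.7% of it, with 356 bp of exons. *HIF1A* (chr14:61695513-61748259) began 71.1 kb downstream of its end, so the enhancer was counted for *HIF1A* by distance alone.

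Among the 3 enhancers the one on chromosome 14 was the densest and the most continuous. It held 17 peaks that covered 88.6% of its length at a mean width of 8613 bp, and its signal per bp was 2.22, rank 269 of the line by that measure. The chromosome 2 enhancer, chr2:160203052-160436521, was the longest UW228 enhancer at 233.5 kb and the one with the most peaks, 57, covering 61.68% of it. Its signal was 235080 and its signal per bp 1.01, rank 4348. The chromosome 5 enhancer, chr5:126338902-126539340, was second in both length (200.4 kb) and peak number (50), with 48.1% of it in peaks. It had a signal of 197151 and 0.984 per bp, rank 4606. Ranked by summed peak length, the 3 were again 1, 2 and 3. The median UW228 SE had 0.954 signal per bp, so the chromosome 2 and 5 enhancers were close to an ordinary SE in density and stood apart in length, whereas the chromosome 14 enhancer was also denser.

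Just below these, the UW228 enhancer of rank 4, near *TRIO*, had a signal of 170271, and ranks 5 and 6, near *TRAM2* and *TNS3*, had 160692 and 157490. The step from rank 3 to rank 4 was smaller than the steps between ranks 1, 2 and 3. Input was not raised in a way that set the 3 enhancers apart. Relative input density, the input per bp of a region over the median of its line, was 1.04 on chromosome 14, 1.02 on chromosome 2 and 1.28 on chromosome 5, against 1.46, 1.33 and 0.991 for ranks 4 to 6.

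**Figure D2:**
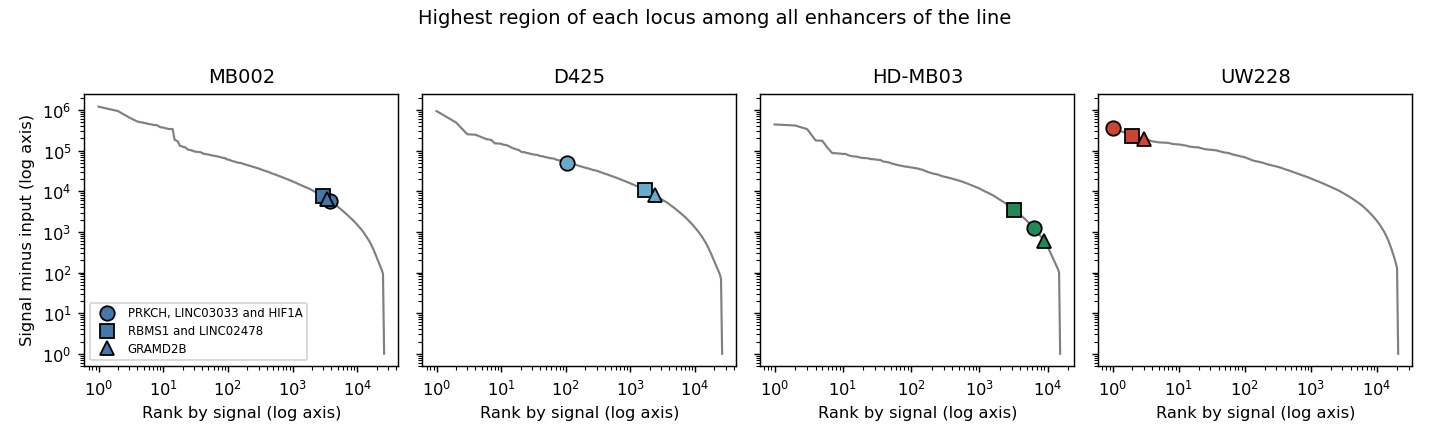
Signal minus input (log axis) against rank by signal (log axis) for all enhancers of each line as a grey curve, with the best region of each locus marked by a symbol. The symbols sit at ranks 1, 2 and 3 in UW228, at rank 106 for the chromosome 14 locus in D425, and at rank 1669 or beyond elsewhere.

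All 6 genes had an SE in UW228, where 7.45% of all genes did by the same rule; the choice of the genes fixed this count. In D425 3 of 6 had one, *PRKCH*, *LINC03033* and *HIF1A*, all through the same region, beside 6.29% of all genes. MB002 and HD-MB03 had an SE at 0 of 6 genes, beside 4.62% and 4.48% of all genes. These counts moved with the processing. By mean signal per bp they were 0 in D425 and 3 in UW228, and without regions over a start 0 in both. Division by relative input density made it 2 in MB002. A gene with an SE in both UW228 and D425 was uncommon, at 1.33% of all genes, and an SE in UW228 but in no G3-MB line was found for 5.42%. The best region was at least 2-fold higher in UW228 than in each G3-MB line for 6 of 6 genes, against 19.5% of all genes, while 52.1% of all genes were at least 2-fold higher in a G3-MB line than in UW228. Since UW228 values chose the genes, nothing is read from these counts.

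*PRKCH* (chr14:61187559-61550976) had a summed signal of 424356 over 9 regions in UW228, 76367 over 7 regions in D425, 9433 over 4 in MB002 and 3043 over 5 in HD-MB03. Its best region held rank 1 in UW228, 106 in D425, 3833 in MB002 and 6319 in HD-MB03. UW228 was highest, D425 was second by a wide margin, and the other lines were low. In MB002 the best region lay 73.2 kb upstream of the start and in HD-MB03 it was an intronic peak of 1542 bp. Upstream of the gene UW228 had 3 further regions of ranks 890, 1217 and 2440, the nearest ending 2.03 kb before the start. The RefSeq start whose upstream sequence is printed above lies 134 kb downstream of the GENCODE start, and 5 small UW228 regions of ranks 8898 to 15347 lay between the GENCODE start and the top enhancer.

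*LINC03033* (chr14:61570405-61658696) had a summed signal of 384548 over 2 regions in UW228, 68536 over 3 in D425, 6541 over 2 in MB002 and 1262 in the 1 region of HD-MB03. Besides the top enhancer, UW228 had a region of 21.3 kb and rank 1183 over its 3' end. In MB002 the main region, chr14:61576301-61603461, was wholly intronic to *LINC03033*, 27.2 kb long and of rank 3851, and the HD-MB03 region, chr14:61589806-61608398, was also intronic, 18.6 kb long and of rank 6261. Both fell inside the UW228 enhancer. Regions of all 4 lines therefore overlapped in the same intronic stretch, but the tables do not give where the peaks lie inside a region, and peaks covered only 17.9% of the MB002 region and 11.2% of the HD-MB03 region. The signal per bp of these regions was 2.22 for UW228, 0.469 for the D425 SE, 0.211 for MB002 and 0.0679 for HD-MB03.

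The D425 SE at this locus, chr14:61511535-61620482, lay wholly inside the UW228 enhancer. It was 108.9 kb long with 38 peaks and a signal of 51140, at a density of 0.469 per bp. A second D425 region inside the same span, chr14:61462007-61493418 within *PRKCH*, had 15 peaks, a signal of 16359 and rank 943. D425 thus had more peaks (53) over the span than UW228 (17), and the UW228 signal over it was 5.42 times the D425 signal. D425 and UW228 shared the serum-containing medium and MB002 and HD-MB03 the stem medium, and medium and line cannot be told apart here.

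*HIF1A* had a summed signal of 450126 over 19 regions in UW228, 52729 over 4 in D425, 6509 over 2 in MB002 and 1262 in the 1 region of HD-MB03. In UW228, 17 of these were regions of a single peak that followed the *LINC03033* 3' end, 10 of them in the *HIF1A* gene body with a signal of 55252 over 30.7 kb. The strongest, chr14:61696217-61707369, began 704 bp after the start and had a signal of 32903, 2.95 per bp and rank 455, and the authors called it an SE. The next, chr14:61708663-61723844, had 19693 and rank 1079. Together these held 80.2% of the signal of the 17 regions, and 14 of the 17 ranked 14067 or beyond. In the G3-MB lines the gene body held a single region in MB002 (signal 767, rank 13877), a single region in D425 (481, rank 15277) and none in HD-MB03. UW228 was therefore far higher over *HIF1A* itself, not only at the neighbouring enhancer.

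The 17 regions were deposited separately although the gaps between them, 324 to 11205 bp, were below the stitching distance of 12 kb named in the tables. Gaps under the slightly larger distance that the methods state made up 1.99% of all gaps between neighbouring UW228 regions and 1.96% to 7.42% in the G3-MB lines. Joined, the 17 regions spanned 88.3 kb with a signal of 65578, rank 117 in UW228. The number of *HIF1A* regions in UW228 therefore depends on the stitching. The signal of the joined region is the sum over the deposited pieces, which cover 38.4 kb, and the gaps between them were counted as 0.

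*RBMS1* (chr2:160272151-160493807, minus strand) had a summed signal of 255252 over 5 regions in UW228, 13186 over 5 in MB002, 4985 over 4 in D425 and 541 in the 1 region of HD-MB03. Best ranks were 2 for UW228, 2966 for MB002, 6017 for D425 and 9207 for HD-MB03. Of the UW228 enhancer 70.4% lay in the *RBMS1* gene body, with 153210 bp in introns and 11161 bp in exons, and it stopped 57.3 kb short of the start. A second UW228 region of 20.9 kb and rank 2479 lay in an intron 1.04 kb from the start. The best MB002 region, chr2:160401013-160407556, was a single peak of 6544 bp at 1.15 signal per bp, denser than the UW228 enhancer around it, and 228 bp of it was UTR.

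*LINC02478* (chr2:160257716-160271880, minus strand) lies next to the 3' end of *RBMS1* and had a summed signal of 235080 in the 1 region of UW228, 16730 over 6 regions in D425, 6260 over 3 in HD-MB03 and 4247 over 5 in MB002. The UW228 enhancer covered the whole gene. D425 was the highest G3-MB line here, whereas MB002 was for *RBMS1*. D425 had its best region, chr2:160207927-160228582 (rank 1669), at 43.3 kb downstream of the *LINC02478* start. A D425 region of 3.21 kb and rank 4448 covered the start itself. HD-MB03 had its best region of the locus, rank 3187, at chr2:160241964-160249904.

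*GRAMD2B* (chr5:126360132-126496494) had a summed signal of 199540 over 2 regions in UW228, 12439 over 3 in D425, 11704 over 3 in MB002 and 601 in the 1 region of HD-MB03. The UW228 enhancer began before the start and ended beyond the gene, so it held the entire gene, with 131312 bp of introns and 5051 bp of exons. MB002 (rank 3396) and D425 (rank 2366) had nearly the same best region, chr5:126482470-126490857 and chr5:126481835-126490790, near the 3' end of the gene, with 6584 and 8063 signal. In HD-MB03 the single region lay 89.4 kb upstream and ranked 8837.

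The MB002 and D425 values for *GRAMD2B* were close, and for *RBMS1* MB002 was above D425. By summed signal, the quantity that chose the genes, UW228 was the highest line at all 6, but by signal per bp of the summed regions MB002 was above UW228 for *RBMS1* (1.01 against 0.972) and D425 close to it for *GRAMD2B* (0.945 against 0.985). The lines fell in the order UW228, D425, MB002, HD-MB03 for 4 of the 6 genes by summed signal. Of these 4, *PRKCH*, *LINC03033* and *HIF1A* shared the chromosome 14 enhancer and are not independent. D425 was below MB002 for *RBMS1* and HD-MB03 above MB002 for *LINC02478*. HD-MB03 also had the fewest enhancers overall.

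**Figure D3:**
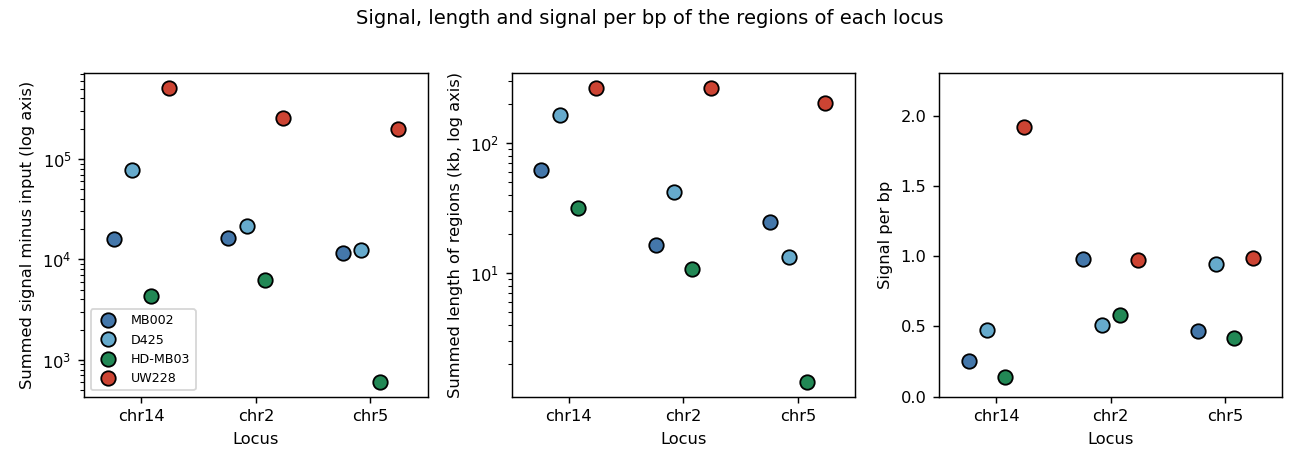
Summed signal minus input (log axis), summed region length in kb (log axis) and signal per bp (linear axis from 0) of the regions at each locus, with 1 point per line. UW228 is highest in signal and length at all 3 loci, but its signal per bp stands apart only on chromosome 14, at 1.92 against 0.473 or less.

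Regions were called in each line separately and sequence outside them counts as 0, so a sum over a locus moves with the length called. Regions covered 264.6 kb of the chromosome 14 locus in UW228, 164.7 kb in D425, 62.1 kb in MB002 and 31.4 kb in HD-MB03. With each region counted once, the summed signal of called regions was 31.9 times that of MB002, 6.52 times D425 and 118 times HD-MB03 there. On chromosome 2 the ratios were 15.8, 11.8 and 40.8, and on chromosome 5 they were 17.05, 16.04 and 332. The excess on chromosomes 2 and 5 lay mostly in length. Regions on chromosome 2 covered 262.6 kb in UW228, 42.2 kb in D425, 16.5 kb in MB002 and 10.7 kb in HD-MB03. On chromosome 5 they covered 202.7 kb in UW228, 24.9 kb in MB002, 13.2 kb in D425 and 1.45 kb in HD-MB03. Signal per bp on chromosome 2 was 0.978 for MB002, 0.972 for UW228, 0.584 for HD-MB03 and 0.512 for D425. On chromosome 5 it was 0.985 for UW228, 0.945 for D425, 0.471 for MB002 and 0.415 for HD-MB03. At each of these loci 1 G3-MB line had about the signal per bp of UW228. These densities are over whole regions, gaps between peaks included, and the regions differed in how much of them was peak: peaks made up 61.68% of the chromosome 2 enhancer of UW228 and 100% of the best MB002 region there, and 48.1% of the chromosome 5 enhancer of UW228 and 58.1% of the best D425 region. On chromosome 14 UW228 had 1.92 per bp, D425 0.473, MB002 0.257 and HD-MB03 0.137. Divided by the median region of each line, UW228 was 2.77, 5.01 and 6.80 times the highest G3-MB line on chromosomes 14, 2 and 5, where the median region itself was longer in UW228 (2264 bp) than in MB002 (1585 bp), HD-MB03 (1369 bp) or D425 (1287 bp).

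**Figure D4:**
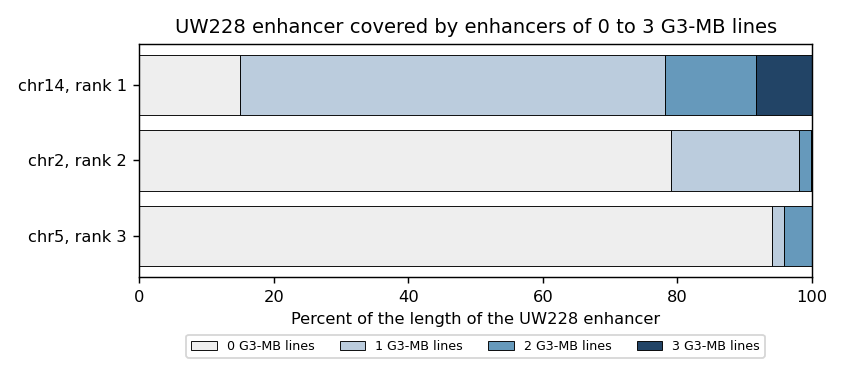
Percent of the length of each top UW228 enhancer that is covered by enhancers of 0, 1, 2 or 3 G3-MB lines. On chromosome 14 only 15.0% is covered by no G3-MB line, against 79.1% on chromosome 2 and 94.1% on chromosome 5.

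How much of each UW228 enhancer was also an enhancer in the G3-MB lines differed between the loci. On chromosome 14 D425 regions covered 84.97% of it, MB002 18.9% and HD-MB03 11.3%, and 8.27% was covered by all 3. On chromosome 2 coverage was 12.8% by D425, 6.37% by MB002 and 3.80% by HD-MB03, and the stretch common to all 3 was the D425 peak of 182 bp printed above (rank 20908 in D425), 24.1 kb from the *LINC02478* start. On chromosome 5 it was 5.63% by D425, 4.31% by MB002 and 0.127% by HD-MB03 (a region of 254 bp too far from the *GRAMD2B* start to be counted for it), with no base covered by all 3. For comparison, the median over all 753 UW228 SEs was 12.04% covered by D425, 4.32% by MB002 and 0.891% by HD-MB03, and 71 of them (9.43%) overlapped a D425 SE. The chromosome 14 enhancer was above all 3 medians. The chromosome 2 enhancer was close to those of D425 and MB002 and above that of HD-MB03, and the chromosome 5 enhancer was below those of D425 and HD-MB03.

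Other genes start in the same intervals and had the same enhancers by the rule. On chromosome 14 *LINC01303* and 2 unnamed genes started inside the UW228 enhancer, and *HIF1A-AS1*, transcribed opposite to *HIF1A*, had the same best regions as *HIF1A*. On chromosome 2 *MIR4785*, a microRNA gene in *RBMS1*, was inside the enhancer, and *ITGB6*, an integrin subunit gene, started only 2.74 kb beyond its end, closer than *RBMS1*. The best region of *ITGB6* ranked 2 in UW228, 1669 in D425, 3187 in HD-MB03 and 10074 in MB002. On chromosome 5 *ALDH7A1*, an aldehyde dehydrogenase gene, overlapped the enhancer with its 3' part while its start was 56.0 kb away, with best ranks of 3 in UW228, 3579 in D425, 7931 in HD-MB03 and 9624 in MB002, and the small RNA gene *RNU6-290P* started 14.1 kb away. Which of the genes at a locus an enhancer acts on cannot be read from these data.

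The window of 100 kb decided the values of *HIF1A*, for which the top UW228 enhancer, at 71.1 kb, held 81.3% of the summed signal and the D425 SE, at 75.0 kb, held 96.99%. With a window of 50 kb 2 of the 6 genes had an SE in D425 and all 6 in UW228. In UW228 the outermost region kept for *RBMS1* was 86.8 kb from the start (signal 5932) and the next one left out was at 118 kb (1692). For *GRAMD2B* these were 84.4 kb (2389) and 220 kb (1030), and in D425 a region with a signal of 2880 lay just outside for *LINC02478*, at 104.8 kb. The nearest UW228 region left out for *LINC03033* was at 109 kb, with a signal of 314.

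Protein-coding genes on other chromosomes with similar ranks over the 4 lines were found by the mean absolute difference in log10 rank of the best region. For *PRKCH*, *HIF1A* and *LINC03033* such a gene was *RPS6KB1*, with ranks 9 in UW228, 118 in D425, 1708 in HD-MB03 and 2782 in MB002. The mean difference was 0.43 log10 units, so even this gene was not close. *RBMS1* and *GRAMD2B* were each other's nearest gene at 0.16. After it came *ALDH7A1* for *RBMS1* (0.24) and *GREM1*, which encodes a BMP antagonist, for *GRAMD2B* (0.27). *LINC02478* was nearest to *ALDH7A1* and *PHAX* (both 0.23), which share the *GRAMD2B* enhancer. The UW228 rank, which chose the genes, enters this difference, so a near gene tends to rank high in UW228 too. *RBMS1* and *GRAMD2B* had UW228 ranks 2 and 3 by that choice. Their pairing was therefore set in part by the choice of the genes, and nothing is read from it.

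**Figure D5:**
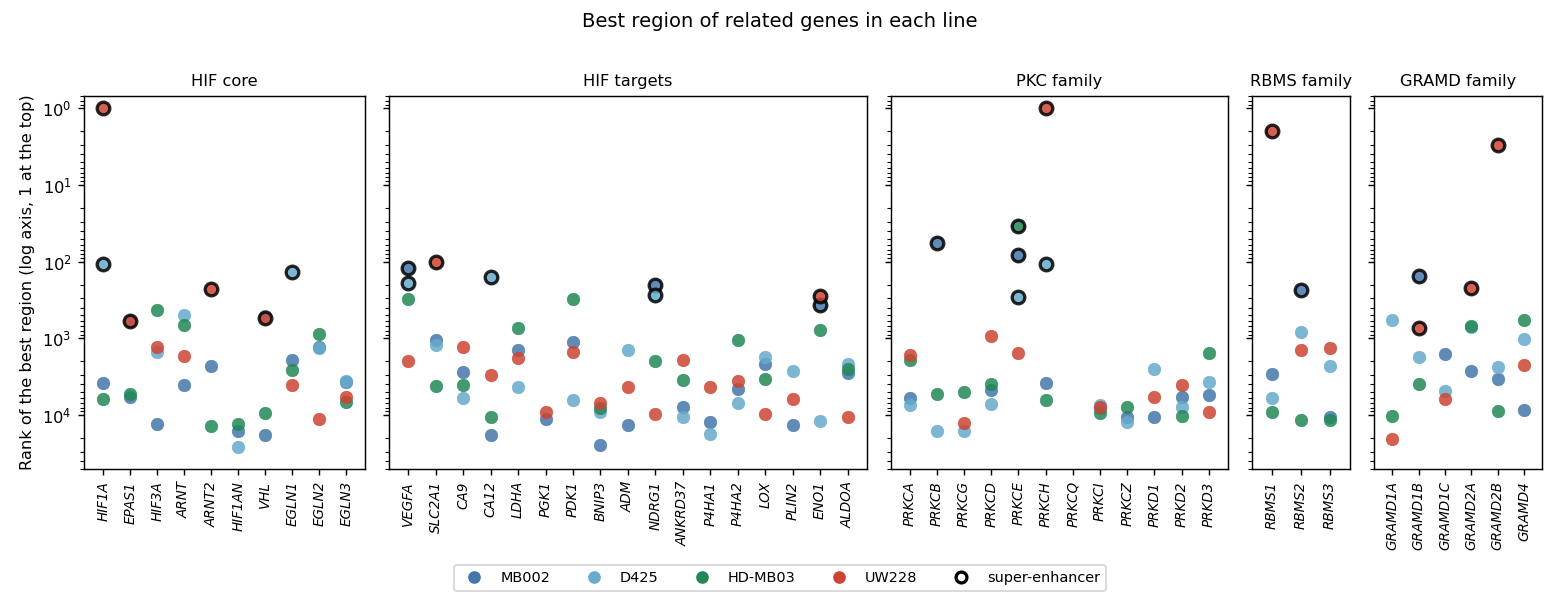
Rank of the best region (log axis, 1 at the top) of genes of 5 related lists, with 1 point per line, black rings for SEs and no point where a gene had no region. *HIF1A*, *PRKCH*, *RBMS1* and *GRAMD2B* stand at ranks 1 to 3 in UW228, and the next gene of these lists in that line is *SLC2A1* at rank 102.

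Genes that work with the 6 genes or belong to their families were examined by the same rule. Of 10 genes of the HIF core (subunits and their oxygen-dependent regulators), 4 had an SE in UW228, 2 had one in D425, and neither MB002 nor HD-MB03 had any. Among all genes the shares were 7.45% in UW228, 6.29% in D425, 4.62% in MB002 and 4.48% in HD-MB03, which also stand beside the counts of the lists that follow. The median best rank of the list was 973.5 in D425 (7383 over all genes), 1494.5 in UW228 (9464), 3966.5 in MB002 (8445) and 5788 in HD-MB03 (7820), so it was ahead of all genes in each line and furthest up in D425. *HIF1A*, whose UW228 call was fixed by the choice of the genes, is in this count and median, and without it 3 of 9 genes had an SE in UW228. Those in UW228 were *HIF1A*, its partner *ARNT2* (rank 230), *VHL* (rank 541), which encodes the ubiquitin ligase subunit that targets HIF-alpha for degradation, and *EPAS1* (rank 597), which encodes HIF-2 alpha. In D425 they were *HIF1A* and the prolyl hydroxylase gene *EGLN1* (rank 135). The list thus included both HIF subunits and negative regulators. *VHL* and *EPAS1* ranked much the same in D425 (518 and 604) without an SE call, where 431 regions were called SEs against 753 in UW228. *ARNT2* had no region in D425. Over the list 2 genes, *HIF1A* and *ARNT2*, were at least 2-fold higher in UW228 than in each G3-MB line (19.5% of all genes). Another 3 were at least 2-fold higher in a G3-MB line than in UW228 (52.1% of all genes).

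Of 18 HIF target genes 2 had an SE in UW228, *SLC2A1*, the glucose transporter gene GLUT1 (rank 102), and *ENO1*, a glycolytic enzyme gene (rank 279). MB002 had 3, *VEGFA* (123), *NDRG1* (200) and *ENO1* (363). D425 had 4, including *CA12* (158), *VEGFA* (191) and *NDRG1* (269), and HD-MB03 had 0. The median best rank of this list lay between 3313.5 and 3806 in all 4 lines. *VEGFA*, the angiogenic growth factor gene, ranked only 1969 in UW228. Over this list 5 genes were at least 2-fold higher in UW228 than in each G3-MB line, as were 19.5% of all genes, and 6 were at least 2-fold higher in a G3-MB line than in UW228, as were 52.1% of all genes.

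*PRKCH* was alone among the 12 genes of the protein kinase C and D family in having an SE in UW228. *PRKCE* (PKC epsilon) had one in MB002 (rank 81), D425 (291) and HD-MB03 (34) and ranked 1537 in UW228, and *PRKCB* (PKC beta) ranked 58 in MB002 and had no region in UW228. The median best rank of the family was 6869.5 in UW228, 7461.5 in D425, 5960 in MB002 and 5836.5 in HD-MB03. Of the 3 RBMS genes only *RBMS1* had an SE in UW228, and *RBMS2* had one in MB002 (rank 236). Of 6 GRAMD genes 3 had an SE in UW228, *GRAMD2B*, *GRAMD2A* (rank 223) and *GRAMD1B* (rank 737), and *GRAMD1B* had one in MB002 (rank 154). Each of these 3 lists is small and holds 1 of the 6 chosen genes, and nothing particular to a family is read from the counts.

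The DNA of the 3 enhancers was not unusual for UW228 SEs in the 4 motifs searched on both strands. TGANTCA occurred 0.424, 0.343 and 0.369 times per kb on chromosomes 14, 2 and 5, against a median of 0.390 over the 753 UW228 SEs, at percentiles 62.9, 34.0 and 43.2 of them. GGAATG occurred 0.624, 0.664 and 0.514 times per kb (median 0.620). TAATCC, the OTX2 and CRX motif, occurred 0.690, 0.583 and 0.858 times per kb (median 0.754), and ACGTG 0.557, 0.493 and 0.384 times per kb (median 0.524). GC content was 43.4%, 40.0% and 39.8%, against a median of 42.1%. Over all UW228 enhancers TGANTCA occurred 0.448 times per kb, against 0.340 in both MB002 and D425 and 0.312 in HD-MB03. These are counts of letters and do not show that a factor was bound.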

How the data were processed

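For each of the 4 lines 1 H3K27Ac ChIP-seq library and 1 input library were used, grouped by the labels. The authors aligned reads to GRCh38 with Bowtie2 2.3.0, handled them with SAMtools 1.9, called peaks with MACS2 2.2.6 per line, left out regions flanking promoters, and stitched and ranked peaks with ROSE. The deposited signal of each enhancer, for H3K27Ac and for input, is the read density scaled to the mapped reads times the length. The deposited score is the ROSE rank, and further deposited columns hold the count of peaks stitched and their summed length in bp. The headers name a stitching distance of 12 kb and the methods a slightly larger one. The UW228 table was created on another date and under a differently built file name than the other tables, which cannot be told apart from the line. Some deposited regions overlap a TSS.

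The tables were analysed in Python 3.11.15 with pandas 2.3.3 and numpy 2.4.6, and figures were made in matplotlib 3.10.9. Input was subtracted (floored at 0) and regions were ranked again by the result, which moved the rank of ties only, by at most 49 places. SE calls were those of the authors. Genes came from GENCODE 44, and the region, gene and motif steps were tested on simulated data. No test was run, because each line had 1 library. The members and lists were chosen with earlier results of these data known. Genes named were the 6 members, genes starting in the 3 intervals, listed genes with an SE in any line, and the 2 protein-coding genes nearest in rank on another chromosome, of which some items are not reported here; list markers and *VEGFA* in UW228 were named with them, and *TRIO*, *TRAM2* and *TNS3* as genes nearest the next enhancers. Alternatives were no input subtraction, 50 kb or gene body windows, mean signal per bp, division by relative input density or by the median of the line, no regions over a start, and a recomputed cutoff.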

Additional observations from a re-analysis of the deposited data

How the results depend on the processing

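Each line had 1 library, so neither replicate error nor depth was known. No paired analysis was possible because the groups compared have 1 sample each. Values were called moved when they changed by over 1.5 times, which held for 5 of 36 counts of members with an SE, 15 of 72 region numbers and 15 of 54 UW228 to highest G3-MB ratios, while 5 further ratios fell below 1. Stitching again and the RefSeq start of *PRKCH* were chosen after seeing the data. The cause was not tested unless the construction shows it.

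Members with an SE became 2 in MB002 after division by relative input density, through a region of 460 bp with a density of 0.0140, became 0 in D425 and 3 in UW228 by mean signal per bp, and became 0 in both lines without regions over a start, since the enhancers themselves are then left out. Ranked by mean signal per bp, the ratio was 4.06 summed and 2.88 for the best region on chromosome 14, 0.994 and 0.990 on chromosome 2, and 1.04 and 0.859 on chromosome 5. Divided by the median of the line, it was 2.77 and 3.04, 5.01 and 9.15, and 6.80 and 10.4. Without regions over a start, it was 3.86 for the best region on chromosome 14, 1.25 and 1.00 on chromosome 2, and 0.467 and 0.481 on chromosome 5. Division by input gave 6.91 and 12.2 on chromosome 2, where the same region of low input enters, and gene bodies alone gave 18.7 summed.

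Region numbers followed the window by construction. Gene bodies alone left 6 in D425 and 17 in UW228 on chromosome 14, 2 in UW228, 3 in D425 and 1 in HD-MB03 on chromosome 2, and 1 in UW228, 1 in MB002 and 0 in HD-MB03 on chromosome 5. A 50 kb window left 3 in UW228 on chromosome 2, and 0 in HD-MB03 and 1 in UW228 on chromosome 5. Without regions over a start, chromosome 5 had 1 in D425 and 1 in UW228. The RefSeq start of *PRKCH* left 3 in HD-MB03 on chromosome 14, and stitching again left 11 in UW228.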
